A study of Mus musculus with 6 samples.

Results

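Stress-marked retinal ganglion cells were selected on the measured counts of 5 genes. They were the cells that carried the authors' label Retinal Ganglion Cells and held at least 2 unique molecular identifiers (UMIs, each 1 captured transcript) summed over Atf3, Ddit3, Bbc3, Hrk and Cdkn1a. They numbered 1183 of 7357 ganglion cells, in a series of 67050 cells. A further 4475 ganglion cells had a sum of 0 and served as the comparison, and 1699 had a sum of 1 and entered neither side. Retinas of mouse embryos at embryonic day 14 had been profiled by droplet single-cell RNA-seq of polyadenylated RNA with the 10x Genomics 3′ v2 chemistry. There were 3 groups, each of 2 libraries. They were Bax het Atoh7 Null (1 copy of Bax lost, Atoh7 lost, as titles and descriptions have it, while the genotype field names only an Atoh7 mutant), Bax Null Atoh7 Null (both genes lost, the double mutant of the labels) and Bax Null (Bax lost, Atoh7 wild type). Every group thus lacked at least 1 copy of Bax, and no group had both genes intact. The labels give neither the alleles nor the number of embryos behind a library. P-values of marked against comparison cells measure how the difference within a library varies over libraries. Those of the direct contrast between groups in marked cells measure the spread between libraries. Either may be technical.

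Atf3 and Ddit3 (which encodes CHOP) are transcription factor genes of the integrated stress response. In that response, phosphorylation of the translation factor eIF2α lowers protein synthesis and raises translation of the transcription factor ATF4, which turns on genes for amino acid synthesis, amino acid transport and tRNA charging. Bbc3 (PUMA) and Hrk encode BH3-only proteins that free the pore-forming protein BAX to open mitochondria, and Cdkn1a (p21) is a cell cycle inhibitor and a classical p53 target. In injured ganglion cells the kinases DLK and JNK act upstream of several of these genes, and loss of Bax keeps such cells alive. Atoh7 encodes a basic helix-loop-helix factor of retinal progenitors that is needed for most ganglion cells to form.

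Libraries held 22463515 to 66594431 UMIs, of which 1913889 to 10906998 lay in ganglion cells. The Bax Null libraries stood apart from the other 4 in depth (median 5578 and 6683 UMIs per ganglion cell, against 1833.5 to 2624), in mitochondrial share and in the lowest UMI total of a kept cell. For every contrast with the Bax Null group, genotype and library preparation cannot be told apart. The 2 double mutant libraries shared 2596 cell barcodes, 89.4% of them with the same cell type in both, whereas each of the other 14 library pairs shared 126 to 223 barcodes, with 34.3% to 46.0% of the same type. Among the shared barcodes were 215 ganglion cells, 58 of them marked in at least 1 library and 20 in both. These 2 libraries may therefore not be fully independent. The gene tests and the marked shares were also run without the shared barcodes, with some of the values given below. Genes detected per cell and mitochondrial share were not. Atoh7 had 0 UMIs in the marked cells of the 4 Atoh7 Null libraries, which allows a level of up to 5.95 to 10.2 CPM (the field's usual scaling of a gene's UMIs to a fixed total of UMIs in the cells summed), and 5 and 16 UMIs in those of the Bax Null libraries. Bax was at 251 and 198 CPM in the marked cells of the Bax het Atoh7 Null libraries, at 89.3 and 33.1 CPM in those of the double mutant libraries and at 30.7 and 27.9 CPM in those of the Bax Null libraries. Among the 4 libraries labelled Bax Null, the 3′ signal of Bax was thus highest in double mutant replicate 1, and whether that library holds a mix of cells or genotypes was not tested.

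The ganglion cell label was borne out by marker genes. All 15 ganglion cell markers were detected in marked cells of every library, and their summed level was higher in marked than in depth-matched sum-0 cells in 6 of 6 libraries (16224 to 23353 CPM against 11847 to 19625 CPM). The summed markers of progenitors, neurogenic cells, photoreceptors and horizontal or amacrine cells were lower in marked cells in 6 of 6 libraries. The 7 microglial markers had 0 to 9 UMIs in the marked cells of a library, with the microglial genes Cx3cr1 and P2ry12 at 0 throughout. The 3 lens markers had 0 to 5 UMIs, the 4 pigment epithelium markers 0 to 8 and the 4 endothelial markers 4 to 28. The 4 red cell markers were higher in Bax Null, with 915 and 1003 UMIs in marked and 978 and 1123 in matched cells. In the marked cells of the other libraries they had 1 to 100 UMIs.

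The marked cells differed between groups in which of the 5 genes had marked them. These counts chose the cells and are given as a description. In the Bax Null libraries Bbc3 (chr7:16308393-16318205, plus strand, GRCm38) supplied 65.8% and 66.3% of the 5 genes' UMIs and Ddit3 (chr10:127290774-127296288, plus strand) 23.3% and 23.9%. In the Atoh7 Null groups Ddit3 led, with 49.6% and 45.4% in Bax het Atoh7 Null and 44.6% and 37.3% in the double mutant, and Bbc3 supplied 26.1% to 30.6%. Atf3 (chr1:191170296-191218039, minus strand) supplied 0.593% and 0.595% of these UMIs in Bax Null, against 11.1% to 15.9% in the other 4 libraries. Hrk (chr5:118164648-118189478, plus strand) supplied 2.67% to 7.43% over all libraries and Cdkn1a (chr17:29090976-29100727, plus strand) 6.30% to 10.2%. Bbc3 was thus the leading marker in the Bax Null libraries and Ddit3 in the Atoh7 Null libraries. These libraries also differ in depth, and genotype and library preparation cannot be told apart here.

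**Figure D1:**
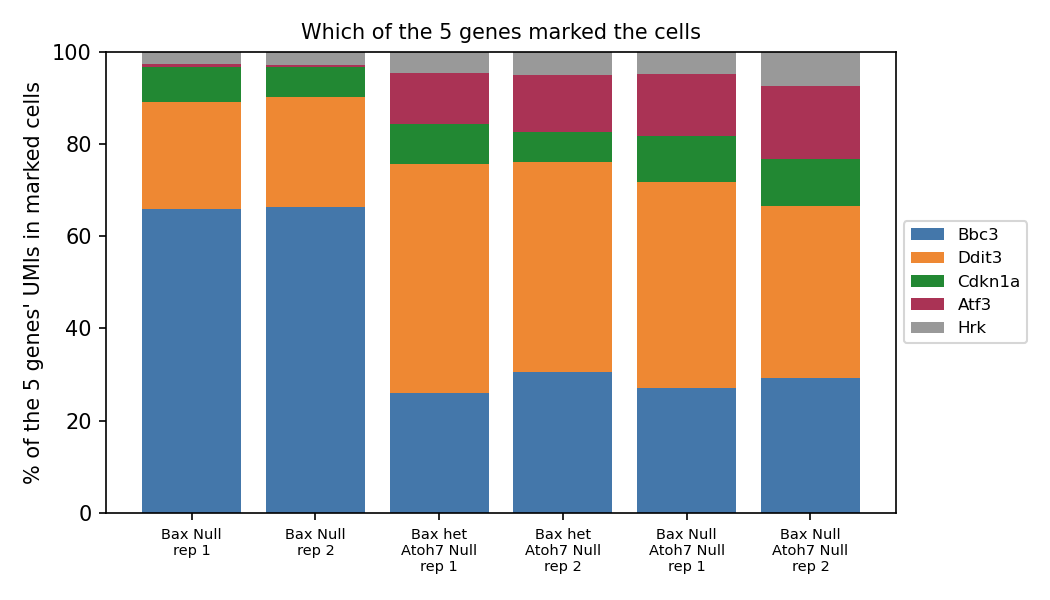
Share of the UMIs of Atf3, Ddit3, Bbc3, Hrk and Cdkn1a that each gene supplied in the marked ganglion cells of each library (bars sum to 100%). Bbc3 supplied 65.8% and 66.3% in the Bax Null libraries and 26.1% to 30.6% in the other 4.

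Marked cells of the Atoh7 Null groups carried more marker transcripts although their libraries were shallower. Of the marked cells, 72.3% and 66.7% sat exactly at the threshold of 2 UMIs in Bax Null, against 34.2% and 36.9% in the double mutant and 62.4% and 38.1% in Bax het Atoh7 Null. A sum of 5 or more was reached by 8 and 12 cells of the Bax Null libraries, by 65 and 57 of the double mutant libraries and by 19 and 25 of the Bax het Atoh7 Null libraries. At least 2 of the 5 genes were detected in 52.5% and 52.1% of marked cells in Bax Null, 76.8% and 79.3% in the double mutant, and 64.7% and 80.4% in Bax het Atoh7 Null. Just outside the threshold, at a sum of 1, lay 522 and 436 cells in Bax Null, 212 and 196 in the double mutant, and 154 and 179 in Bax het Atoh7 Null.

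The share of ganglion cells that were marked depended on depth. In the deposited counts it was 15.7% (95% Wilson interval 14.1 to 17.5) and 21.0% (19.1 to 23.1) in Bax Null, 16.5% (14.4 to 18.7) and 17.8% (15.7 to 20.2) in the double mutant, and 12.7% (10.4 to 15.5) and 9.19% (7.59 to 11.1) in Bax het Atoh7 Null. The group means were 18.3% ± 3.76 (SD, n = 2), 17.2% ± 0.961 and 10.96% ± 2.52. When every cell was thinned to 1500 UMIs, the shares became 1.32% and 2.39% in Bax Null, 13.8% and 13.7% in the double mutant, and 5.45% and 5.13% in Bax het Atoh7 Null. Thinning left out 23 and 23, 313 and 312, and 43 and 62 ganglion cells of these libraries as too shallow. At equal depth the marked share was therefore highest in the double mutant and lowest in Bax Null, and no 2 groups overlapped. Without the shared barcodes the thinned share of the double mutant was 14.3% ± 0.174 (SD, n = 2). The intervals cover counting error only, and no test was made because the share is what the rule counts.

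**Figure D2:**
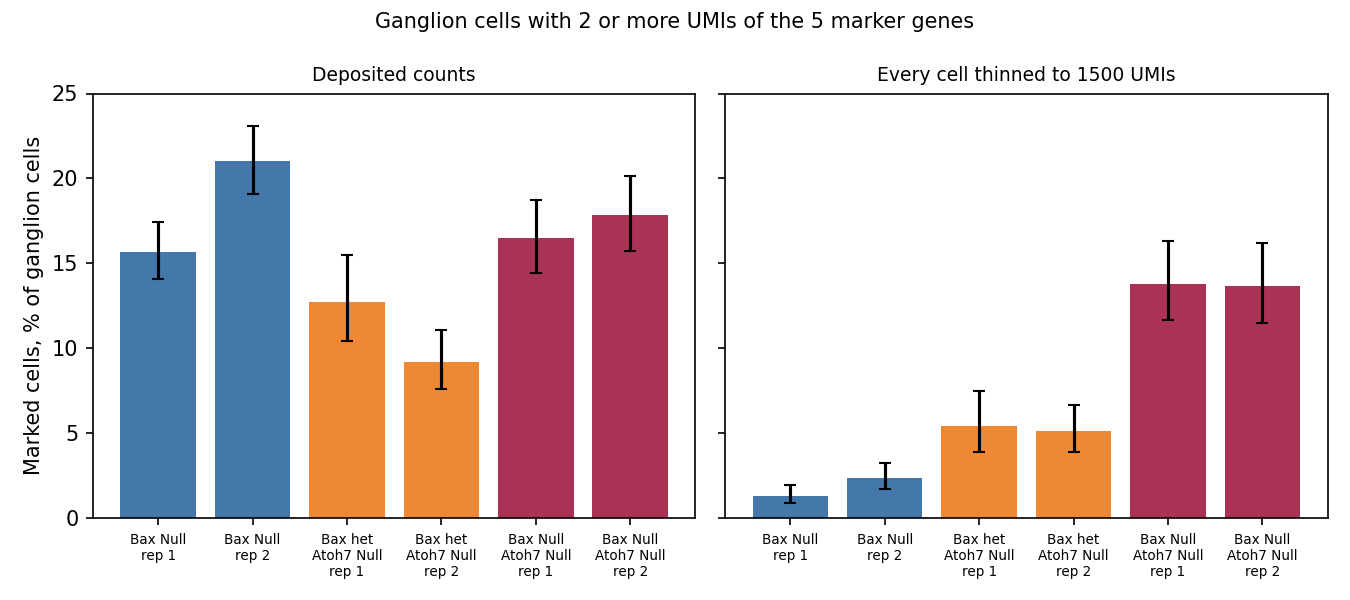
Marked cells as a percentage of ganglion cells in each library, from the deposited counts (left) and after thinning every cell to 1500 UMIs (right), with bars for the share and whiskers for its 95% Wilson interval. In the deposited counts the Bax Null libraries are at 15.7% and 21.0%, and at equal depth they are at 1.32% and 2.39%.

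Among the other cell types, cones showed the next highest share. Thinned to 1500 UMIs, 6.33% ± 0.662 (SD, n = 2) of cones were marked in Bax Null, 6.17% ± 1.44 in the double mutant and 3.73% ± 2.16 in Bax het Atoh7 Null. Among neurogenic cells the thinned shares were 0.431%, 0.793% and 0.456% in the same order at the same depth. The marked share of ganglion cells in Bax Null (1.85% ± 0.760) was thus below that of cones, while in the double mutant (13.7% ± 0.0913) it was above it.

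To ask which other genes differed, each marked cell was paired with a sum-0 ganglion cell of the same library and nearly the same UMI total, counts were summed per library and state, and the 5 genes were left out. Matching was close, with median totals of 1993 and 1992 UMIs in the library where cells were shallowest and 7841.5 and 7655.5 where they were deepest. In every library the summed UMIs were still higher in marked cells. They were 2726704 against 2612558 in Bax Null replicate 2 and 306306 against 298677 in Bax het Atoh7 Null replicate 1. In the 4 Atoh7 Null libraries, edgeR's quasi-likelihood test with Benjamini-Hochberg adjustment called 934 of 5352 genes (17.5%), 454 higher (8.48%) and 480 lower (8.97%) in marked cells, 188 of them by at least 2-fold. Over all 6 libraries it called 428 of 5521 genes (7.75%), 207 higher (3.75%) and 221 lower (4%), 32 of them by at least 2-fold. By group, 254 genes (4.6%) were called in Bax het Atoh7 Null, 132 higher (2.39%) and 122 lower (2.21%). The double mutant had 727 (13.2%), 336 higher (6.09%) and 391 lower (7.08%), and Bax Null 255 (4.62%), 113 higher (2.05%) and 142 lower (2.57%). Only 3 of the 255 genes in Bax Null differed by at least 2-fold, against 107 and 241 in the other groups. The Bax Null calls rest on both libraries and on the block, with 11 and 14 genes called without replicate 1 and replicate 2, 3 without the library as a block, 4 by DESeq2 and 1 with the rule on counts thinned to 1500 UMIs. Without any 1 of the Atoh7 Null libraries the count over all libraries was 217 to 250, and without double mutant replicate 1 or replicate 2 that in the Atoh7 Null libraries was 575 or 596.

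Genes of the integrated stress response led the difference in Atoh7 Null ganglion cells. Ddit3 and Atf3, which helped to choose these cells, are themselves genes of that response. Ddit3 was detected in 74.9% to 85.3% and Atf3 in 28.2% to 38.9% of the marked cells of an Atoh7 Null library. A rise in these libraries of genes that move with Ddit3 or Atf3 is therefore partly set by the rule. Of the 27 listed genes, which exclude Atf3 and Ddit3, 23 were tested there and all 23 were higher in marked cells, with a median log2 fold change of 2.67, against a median of −0.02 over all genes tested. Since a gene could enter the test only with the help of the marked cells, where it is high, the count was also taken over the 12 that passed the filter on low counts in the matched sums by themselves. All 12 were higher, with a median of 1.67, where 7.45% of all genes so filtered were higher. The other 4 of the 27 were too low to test. Without the barcodes shared by the double mutant libraries, 23 of 23 tested were higher, a count not restricted to genes that passed in the matched sums.

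Asns, which encodes asparagine synthetase, was at 225 and 348 CPM in marked cells of Bax het Atoh7 Null against 46.9 and 34.4 CPM in matched cells, and at 401 and 455 against 53.9 and 73.8 CPM in the double mutant. In Bax Null it was at 26.3 and 20.5 against 17.1 and 20.7 CPM. Marked and matched levels thus did not overlap in the Atoh7 Null groups and overlapped in Bax Null. The log2 fold change in the Atoh7 Null libraries was 2.75 ± 0.15 (SE, edgeR adjusted p = 2.72e-29), and in Bax Null it was 0.26 ± 0.21 (edgeR adjusted p = 0.643). Mthfd2, of mitochondrial one-carbon metabolism, gave the same picture, at 287 to 488 CPM in marked and 51.5 to 67.1 CPM in matched Atoh7 Null cells, against 24.2 to 32.2 and 21.2 to 26.8 CPM in Bax Null.

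Several response genes had few UMIs in the depth-matched sum-0 cells. Trib3, a pseudokinase gene induced by ATF4 and CHOP, had 16, 31, 45 and 49 UMIs in the marked cells of the 4 Atoh7 Null libraries and 1, 0, 0 and 3 in as many matched cells. Values of these libraries are given throughout in the order Bax het Atoh7 Null replicates 1 and 2, then double mutant replicates 1 and 2. Chac1, which encodes a glutathione-degrading enzyme, had 27, 35, 80 and 60 UMIs against 2, 1, 3 and 4. Nupr1, a stress-induced chromatin protein gene, had 31, 42, 77 and 74 against 1, 0, 2 and 6. Slc7a3, a cationic amino acid transporter gene, had 17, 12, 55 and 48 against 3, 0, 0 and 4. Fitted log2 fold changes were 4.95 ± 0.41 for Trib3, 4.24 ± 0.30 for Chac1, 4.54 for Nupr1 and 4.11 for Slc7a3, and with matched counts this low they depend on the prior count of the fit. In the deeper Bax Null libraries the marked cells had 2 and 5 UMIs of Trib3, 10 and 4 of Chac1, 13 and 0 of Nupr1 and 0 and 0 of Slc7a3. These genes were not confined to marked cells. At a marker sum of 1, Chac1 was at 29.9, 9.55, 29.3 and 13.6 CPM and Trib3 at 10.7, 7.64, 13.7 and 20.4 CPM in the Atoh7 Null libraries. In the 22 to 40 sum-0 cells of the authors' cluster 62, described further on, Chac1 was at 83.1, 19.0, 125 and 54.4 CPM, from 2 to 9 UMIs.

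The transcription factor and transport genes of the response moved in the same libraries. Atf4 itself was at 284, 427, 520 and 492 CPM in marked and 161, 117, 198 and 166 CPM in matched Atoh7 Null cells (log2 1.41 ± 0.12, edgeR adjusted p = 3.03e-18). Its relative Atf5 was at 176, 225, 375 and 448 against 50.2, 20.6, 30.0 and 58.1 CPM (log2 2.99 ± 0.17, edgeR adjusted p = 3.64e-28). The translation repressor gene Eif4ebp1 rose by 2.94 ± 0.17, the amino acid transporter subunit gene Slc3a2 by 1.78 ± 0.11 and the serine synthesis gene Psat1 by 1.49 ± 0.14, on the log2 scale. Of the listed tRNA synthetase genes, Aars rose least, by 0.59 on the log2 scale. Atf5 and Eif4ebp1 passed the filter only with the marked sums, as did Trib3, Chac1, Nupr1 and Slc7a3.

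The upstream bases of 4 of these genes show a sequence that they share. Promoter windows came from RefSeq (GRCm38.p6), which held one for 23 of the 27 listed genes. The motif searched was TGATGNAA on both strands, the core of the C/EBP-ATF response element through which ATF4 acts in many amino acid response genes. The 250 bases before the start of Asns (chr6:7693210-7693459, minus strand), Chac1 (chr2:119350992-119351241, plus strand), Nupr1 (chr7:126625471-126625720, minus strand) and the marker gene Atf3 (chr1:191183334-191183583, minus strand) are printed 5′ to 3′ in the direction of the gene, with the match in capitals, on the gene's own strand in Asns and on the other strand in the rest.
Asns: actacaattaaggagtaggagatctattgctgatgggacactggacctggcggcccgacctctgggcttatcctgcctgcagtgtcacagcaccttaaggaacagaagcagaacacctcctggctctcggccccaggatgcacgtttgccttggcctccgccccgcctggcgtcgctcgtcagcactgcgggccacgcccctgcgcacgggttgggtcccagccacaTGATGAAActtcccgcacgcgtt
Chac1: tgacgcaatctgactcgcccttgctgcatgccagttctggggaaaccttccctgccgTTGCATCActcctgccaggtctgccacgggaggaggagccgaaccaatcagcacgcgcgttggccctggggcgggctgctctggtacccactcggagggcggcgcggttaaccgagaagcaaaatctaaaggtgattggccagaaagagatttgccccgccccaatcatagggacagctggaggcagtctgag
Nupr1: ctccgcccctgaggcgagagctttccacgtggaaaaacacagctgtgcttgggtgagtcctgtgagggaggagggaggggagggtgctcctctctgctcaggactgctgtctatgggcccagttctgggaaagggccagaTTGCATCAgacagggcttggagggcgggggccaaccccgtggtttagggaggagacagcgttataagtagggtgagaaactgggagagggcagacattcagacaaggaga
Atf3: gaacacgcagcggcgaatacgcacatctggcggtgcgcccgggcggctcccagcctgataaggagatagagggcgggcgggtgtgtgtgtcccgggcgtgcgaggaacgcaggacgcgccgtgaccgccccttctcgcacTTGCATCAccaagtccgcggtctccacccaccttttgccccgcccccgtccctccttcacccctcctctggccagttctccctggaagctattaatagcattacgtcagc
The first base of the match lay at −23 in Asns, −193 in Chac1, −110 in Nupr1 and −110 in Atf3, counted from the start. Over windows of 250 bases before to 50 after the start, the motif occurred in 9 of the 23 listed genes with a window and in 2 of the 5 marker genes, Atf3 and Hrk. It occurred in 32 of 330 genes called higher in marked Atoh7 Null cells (9.70%), in 8 of 357 called lower (2.24%), in 109 of 4163 tested (2.62%) and in 1219 of 27025 RefSeq genes (4.51%). A match is a description of letters, and binding was not measured.

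The difference between marked and matched cells was not the same in the Atoh7 Null groups and in Bax Null. The cells were not marked by the same genes, however. Bbc3 supplied most marker UMIs in Bax Null, and Ddit3, itself a gene of this response, led in the Atoh7 Null groups. The contrast was not fitted with any marker gene left out of the rule, so the part of this mix was not tested. Of the 16 listed response genes tested in every group, 14 were higher in marked cells of Bax het Atoh7 Null (median log2 1.79, where 2.39% of all genes tested were higher), 16 in the double mutant (median 1.76, where 6.09% were) and 2 in Bax Null, Atf5 and Vldlr (median −0.01, where 2.05% were). Over the 9 of the 16 that passed the filter in the matched sums by themselves, 8 were higher in Bax het Atoh7 Null (median 1.65), 9 in the double mutant (median 1.51) and 0 in Bax Null (median −0.03), where 2.32%, 5.96% and 2.53% of all genes so filtered were. Atf5 was at 49.0 and 47.7 CPM in marked Bax Null cells against 28.7 and 37.1 CPM (log2 0.52 ± 0.16, edgeR adjusted p = 0.0471). The difference between the mean Atoh7 Null effect and the Bax Null effect was itself called for 309 of 5521 genes (5.6%), 157 higher (2.84%) and 152 lower (2.75%), among them 14 of the 16 response genes and 8 of those 9. It was 2.51 ± 0.29 for Asns (edgeR adjusted p = 1.04e-09) and 3.08 ± 0.28 for Eif4ebp1 (edgeR adjusted p = 5.43e-13) on the log2 scale. Both genes passed the filter in this fit only with the marked sums. The count was 21 without cluster 62, 42 by DESeq2, 90 without the library as a block and 65 with the rule applied to counts thinned to 1500 UMIs, and without Bax Null replicate 1 or replicate 2 it was 135 or 128.

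**Figure D3:**
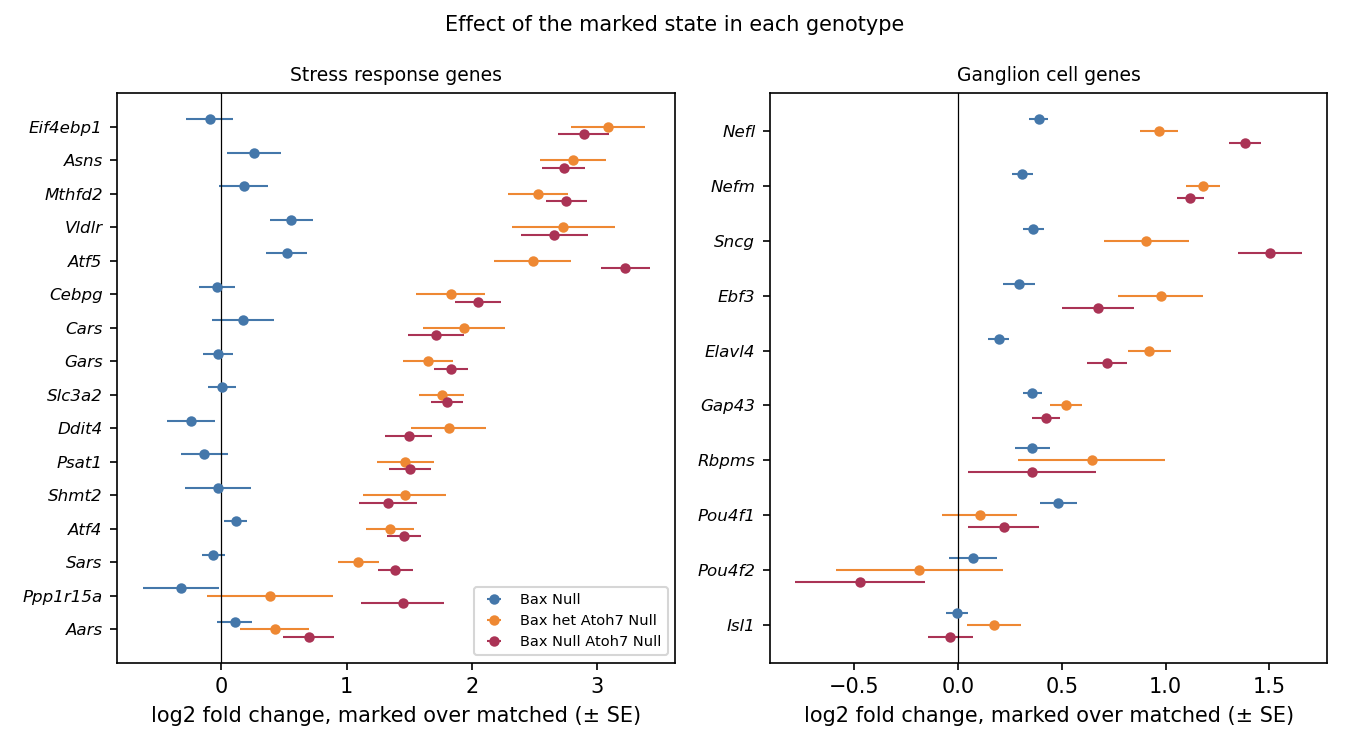
Log2 fold change of marked over matched ganglion cells (points, with bars for ± 1 standard error) in each group, for the 16 stress response genes tested in every group (left) and for 10 ganglion cell genes (right). For Asns the points lie at 2.81 in Bax het Atoh7 Null, 2.73 in the double mutant and 0.26 in Bax Null.

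The response genes were also followed by the number of marker UMIs in a cell. This does not equalize depth. Marked cells had medians of 6566.5 and 7841.5 UMIs in Bax Null and of 1993 to 3067 in the Atoh7 Null libraries. The same marker sum is thus a smaller fraction of a cell's UMIs in Bax Null. The 27 response genes summed to 760 and 790 CPM in Bax Null cells with a marker sum of 0, and to 799 and 792 CPM at a sum of 2. In the double mutant they summed to 1472 and 1499 CPM at 0, 3386 and 4414 CPM at 2, and 8115 and 8759 CPM at 5 or more. In Bax het Atoh7 Null they summed to 1329 and 1231 CPM at 0, 2737 and 3796 CPM at 2, and 6487 and 8125 CPM at 5 or more. Levels thus climbed with each class of marker sum in the 4 Atoh7 Null libraries, where cells with a single marker UMI (1709 to 2131 CPM) were already above those with none. In Bax Null only the 8 and 12 cells with 5 or more marker UMIs stood above the rest, at 2037 and 1310 CPM.

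**Figure D4:**
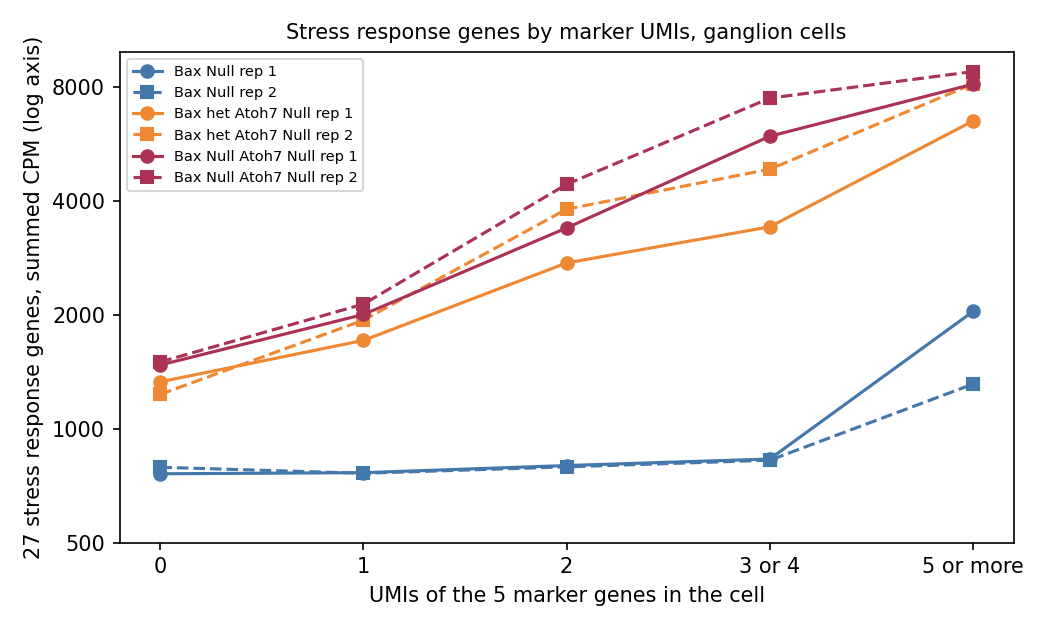
Summed level of the 27 stress response genes in ganglion cells (CPM, log axis) by the number of UMIs of the 5 marker genes in the cell, 1 line per library. The 4 Atoh7 Null lines climb from between 1231 and 1499 CPM to between 6487 and 8759 CPM, and the Bax Null lines stay between 760 and 831 CPM up to 4 UMIs. The class of 3 or 4 UMIs held 13 cells in Bax het Atoh7 Null replicate 1. Cells were not thinned to equal depth here.

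The rule was also applied to counts thinned to 1500 UMIs, with levels then taken from the full counts of the cells so marked. Such cells had 6882 and 7811 CPM of the response genes in the double mutant, against 913 and 919 CPM in the 23 and 37 cells of Bax Null. The level in Bax het Atoh7 Null was 4908 and 6957 CPM. Their sum-0 counterparts were at 1560 and 1620, 770 and 784, and 1470 and 1405 CPM in the same order.

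Marked cells of the Atoh7 Null groups gathered in 1 of the authors' 20 ganglion cell clusters. Cluster 62 held 666 cells, 381 of them marked (57.2%), and 32.2% of all marked cells. It took 64.2% and 70.0% of marked cells in the double mutant, 38.8% and 60.8% in Bax het Atoh7 Null, and 4.32% and 3.94% in Bax Null. The authors' clusters rest on the cells' own transcripts, so the response genes are only described here. Marked cells of cluster 62 had 7114 to 8890 CPM of the 27 response genes in the Atoh7 Null libraries, against 3125 to 3884 CPM in its sum-0 cells. Outside the cluster, marked Atoh7 Null cells had 2042 to 3021 CPM and sum-0 cells 1126 to 1379 CPM. Inside the cluster and outside it, the marked cells were thus the higher ones in 4 of 4 libraries, and cluster 62 was raised even where no marker UMI was seen.

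**Figure D5:**
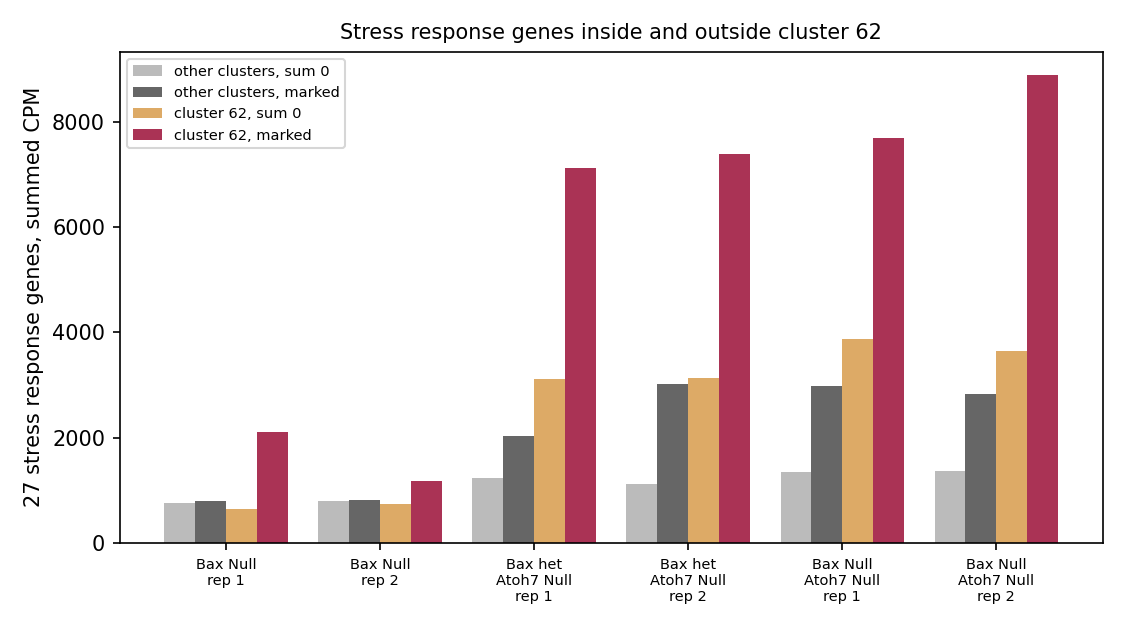
Summed level of the 27 stress response genes (CPM) in sum-0 and marked ganglion cells inside cluster 62 and in the other ganglion cell clusters, by library. Marked cells of cluster 62 reach 7114 to 8890 CPM in the 4 Atoh7 Null libraries and 2104 and 1188 CPM in the Bax Null libraries, where they number 12 and 13.

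Leaving cluster 62 out of both states lowered the counts. In the Atoh7 Null libraries 110 genes were then called, and 10 of the 15 response genes tested were higher, with a median log2 fold change of 1.03, where 2.47% of all genes tested were higher. With marked cells paired only within their own cluster, 109 genes were called, and 20 of 21 response genes tested were higher, with a median of 1.17, where 1.77% of all genes were. This pairing used only 108 of 190 and 99 of 203 marked cells of the double mutant, and in them it no longer matched depth, with medians of 3061.5 against 2145.5 and 2504 against 2044 UMIs. Over all 6 libraries none of the 8 response genes tested was called without cluster 62 by edgeR (median log2 fold change 0.18, where 3.93% of all genes were higher). Within clusters 8 of 16 were higher (median 0.50, where 0.517% were). The counts of response genes without cluster 62 and within clusters were not restricted to genes that passed the filter in the matched sums.

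In the lists of p53, the Bcl2 family and the caspases few genes were tested. Of 8 tested p53 genes, Ccng1 alone rose over all libraries (log2 0.68 ± 0.20, edgeR adjusted p = 0.0369), higher in 6 of 6, where 3.75% of all genes were higher, while the p53 regulator gene Mdm2 was at 0.27 ± 0.17 (edgeR adjusted p = 0.384). Ccng1 passed the filter only with the marked sums, and of the 5 p53 genes that passed in the matched sums none was called higher. In the Atoh7 Null libraries Ccng1 rose and Btg2 fell, where 17.5% of all genes were called. Of 4 tested Bcl2 family genes, the BH3-only gene Bcl2l11 (BIM) rose in the Atoh7 Null libraries by 1.46 ± 0.34 on the log2 scale (edgeR adjusted p = 6.19e-04), led by double mutant replicate 2 with 43 UMIs against 6. In Bax het Atoh7 Null replicate 1 it had 6 UMIs in marked and 9 in matched cells, and it too passed the filter only with the marked sums. The survival gene Mcl1 fell by 0.60 on the log2 scale (edgeR adjusted p = 0.0301). Of 4 tested caspase and apoptosome genes, Diablo alone was called, lower in marked Atoh7 Null cells, where 8.97% of all genes were lower.

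JNK and axon injury genes split. In the Atoh7 Null libraries 8 of 17 were higher and 2 lower, where 8.48% of all genes were higher and 8.97% lower. Of the 13 that passed the filter in the matched sums, 5 were higher and 2 lower. Of all 4175 genes so filtered, 311 (7.45%) were higher and 479 lower. Jun, the transcription factor gene downstream of JNK, was at 382, 516, 556 and 627 CPM in marked and 224, 182, 194 and 257 CPM in matched Atoh7 Null cells (log2 1.28 ± 0.11, edgeR adjusted p = 3.03e-18). In Bax Null it was at 78.8 and 88.4 against 79.6 and 53.6 CPM (log2 0.37 ± 0.13, edgeR adjusted p = 0.0886). Stmn4, a microtubule regulator gene of neurons, rose in all 3 groups, by 1.32 ± 0.11 in Bax het Atoh7 Null, 1.48 ± 0.08 in the double mutant and 0.31 ± 0.07 in Bax Null. Map3k12, which encodes the kinase DLK, was higher in 6 of 6 libraries (log2 0.63 ± 0.15, edgeR adjusted p = 0.0137), a gene that over all libraries passed the filter only with the marked sums. Gadd45a went the other way in 6 of 6 libraries, at 192 to 508 CPM in marked and 346 to 926 CPM in matched cells (log2 −1.04 ± 0.09, edgeR adjusted p = 1.47e-06). It is a stress-inducible gene that is also expressed in newly born neurons.

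The chaperones of the endoplasmic reticulum did not follow the ATF4 genes. Of 12 tested genes in the list of the unfolded protein response, Herpud1 and Dnajb9 rose in the Atoh7 Null libraries and Hspa5, Hsp90b1, Calr, Pdia6 and Manf fell, where 8.48% of all genes were higher and 8.97% lower. Dnajb9 passed the filter only with the marked sums. Hspa5 (BiP), the main chaperone of this compartment, was at 229, 137, 161 and 214 CPM in marked and 275, 258, 252 and 237 CPM in matched cells (log2 −0.47 ± 0.13, edgeR adjusted p = 0.00381). The lectin chaperone gene Calr fell by 0.68 ± 0.09 on the log2 scale, and without cluster 62 its value was 0.01. Manf, which encodes a secreted protein of this compartment, fell by 0.41 ± 0.13 on the log2 scale, and without cluster 62 its value was 0.08. Herpud1, which acts in degradation of misfolded proteins and also answers to ATF4, was at 134, 236, 232 and 203 against 67.0, 41.2, 30.0 and 69.3 CPM. None of the 12 was called in Bax Null, where 4.62% of all genes were. Of 6 tested genes of heat shock and tissue dissociation, Hspe1 alone was called over all libraries. It was lower in marked cells of 6 of 6, where 4% of all genes were called lower.

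Many genes of ganglion cell identity were higher in marked cells. Of 22 tested identity genes, 14 were higher and 2 lower (Dlx1 and Dlx2) over all libraries, where 3.75% of all genes were higher and 4% lower, with a median log2 fold change of 0.32 against −0.01 over all genes. By group, 10 were higher and 3 lower in Bax het Atoh7 Null, where 2.39% and 2.21% of all genes were. The double mutant had 9 and 3, where 6.09% and 7.08% were. Bax Null had 15 and 2, where 2.05% and 2.57% were. The third lower gene of the Atoh7 Null groups was Tubb3, which encodes a neuronal tubulin, at −0.34 ± 0.05 in the Atoh7 Null libraries (edgeR adjusted p = 1.85e-07) and 0.09 ± 0.05 in Bax Null on the log2 scale, and its value in the Atoh7 Null libraries was 0.02 without cluster 62. The neurofilament gene Nefl was at 1214, 1618, 1484 and 1817 CPM in marked Atoh7 Null cells against 663, 783, 523 and 738 CPM, and at 2029 and 1985 against 1571 and 1489 CPM in Bax Null. It rose by 1.19 ± 0.07 in the Atoh7 Null libraries and by 0.39 ± 0.05 in Bax Null on the log2 scale, and the difference of the effects, 0.79 ± 0.08, was called (edgeR adjusted p = 8.09e-12). The growth cone gene Gap43 rose by 0.43 ± 0.05, with a difference between Atoh7 Null and Bax Null of 0.11 ± 0.07 (edgeR adjusted p = 0.421). Among the transcription factors of the list, Pou4f2 and Isl1 were closer to even, at −0.05 ± 0.12 (edgeR adjusted p = 0.997) and 0.03 ± 0.07 (edgeR adjusted p = 0.879). This does not hold for all of them. Pou4f1 had a positive value over all libraries, which turned direction in alternatives given further on. The receptor tyrosine kinase gene Ret was higher in 6 of 6 libraries (log2 0.80 ± 0.23, edgeR adjusted p = 0.0338), and passed the filter only with the marked sums.

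Paired within the authors' clusters, with the cells lost as above, 2 of 20 identity genes were higher over all libraries. Their median log2 fold change was 0.07, and 0.517% of all genes were higher. Without cluster 62, 15 of 20 were higher, with a median of 0.36, where 3.93% of all genes were. In Bax Null 15 of 22 identity genes were called higher, with a median of 0.25, where 2.05% of all genes were. None was called higher when the library was not a block in the fit (median 0.25), by DESeq2 (median 0.25) or with the rule applied to thinned counts (median 0.12).

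Of 9 listed markers of neurogenic cells, 5 were tested, and over all libraries Hes6, Neurog2 and Dll3 were lower and Insm1 higher, where 4% of all genes were lower and 3.75% higher. In Bax Null only Hes6 was called, at −0.42 ± 0.06 on the log2 scale (edgeR adjusted p = 6.1e-06), where 4.62% of all genes were called. Insm1, a zinc-finger factor gene of neurogenic cells, was at 356, 550, 437 and 314 CPM in marked Atoh7 Null cells against 331, 375, 342 and 204 CPM. The neurogenic factor gene Neurog2 was at 55.5, 44.4, 65.5 and 108 CPM in marked Atoh7 Null cells against 201, 265, 190 and 181 CPM, and at 13.9 and 10.3 against 16.6 and 10.3 CPM in Bax Null. Among the called genes with the lowest fold changes, the Notch target gene Hes5 fell in each group, and by most in Bax Null (log2 −1.27 ± 0.11, edgeR adjusted p = 1.7e-13). Fabp7, a fatty acid binding protein gene of progenitors, fell by 1.29 ± 0.17 on the log2 scale, in 6 of 6 libraries. Sp8, a zinc-finger factor gene, had 2, 0, 2 and 1 UMIs in marked Atoh7 Null cells against 8, 12, 27 and 28 in matched ones, and 39 and 50 against 65 and 77 in Bax Null. Its marked levels lay below the matched ones in 6 of 6 libraries, but Sp8 passed the filter only through the matched sums, where it is high.

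Over all 6 libraries, the highest fold changes among called genes of at least 20 CPM with the same direction in each library were those of Atf5, Vldlr, Aldh18a1, Cars and Nes. Vldlr, a lipoprotein receptor gene, rose by 1.46 ± 0.26 on the log2 scale. Aldh18a1, of proline synthesis, rose by 1.36 ± 0.20. Nes, which encodes the intermediate filament protein nestin, was at 127, 140, 149 and 221 CPM in marked Atoh7 Null cells against 33.5, 41.2, 59.9 and 31.3 CPM. Atf5, Vldlr, Aldh18a1, Cars and Nes passed the filter only with the marked sums. The phosphatase gene Dusp8, which acts on JNK, rose by 0.99 ± 0.15.

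Between the groups that lack Atoh7 and differ in Bax, 1 gene set the marked effects apart. The effect differed between the double mutant and Bax het Atoh7 Null for 1 of 5521 genes (0.0181%), and for 308 genes at an unadjusted p under 0.05. DESeq2 called 0 genes. The called gene, Crabp1, encodes a retinoic acid binding protein. It was at 1388 and 1007 CPM in marked Bax het Atoh7 Null cells against 817 and 684 CPM, and at 1879 and 1985 against 715 and 613 CPM in the double mutant (difference of log2 effects 0.85 ± 0.16, edgeR adjusted p = 0.00567). It was not called without double mutant replicate 2, without cluster 62, without the library as a block, or without the cells of highest doublet score. None of the 16 response genes tested was called, and for Asns the difference was −0.07 ± 0.38.

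Levels in marked cells were also compared directly between these groups. The test called 85 of 6526 genes (1.3%), with 7 higher (0.107%) and 78 lower (1.2%) in the double mutant. Of the 25 response genes tested, Atf5 (log2 0.94 ± 0.16, edgeR adjusted p = 0.00439) and Cebpb (2.18 ± 0.53, edgeR adjusted p = 0.0498) were higher, and the median was 0.42 against 0.01 over all genes. Cebpb, a C/EBP factor gene, had 24 and 46 UMIs in the double mutant and 2 and 7 in Bax het Atoh7 Null. In the Bax het Atoh7 Null library with 2 UMIs it lay below the limit of the filter, and its adjusted p is next to the threshold. The mitochondrial protein gene Chchd10 rose from 22.9 and 34.1 to 115 and 92.7 CPM. The ferritin gene Ftl1, in whose region of chromosome 7 Bax lies, was lower in the double mutant, at 764 and 64.0 against 2932 and 1980 CPM. In the matched sum-0 cells Ftl1 was at 811 and 53.7 against 3003 and 2027 CPM, and Bax at 81.9 and 42.5 against 238 and 155 CPM, so both differed alike in unmarked cells. Without double mutant replicate 1, whose Ftl1 and Bax levels lay nearer those of Bax het Atoh7 Null, 248 genes were called, and without Bax het Atoh7 Null replicate 1 or replicate 2, 48 or 52.

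Marked cells had more genes detected and a lower mitochondrial share than their matched cells. The median number of genes detected, the 5 left out, was higher in marked than matched cells by 27.6 ± 9.21 (SD over 6 libraries), in 6 of 6 libraries (exact two-sided sign-flip permutation test p = 0.03125, the smallest it can give, adjusted p = 0.03125). Summed UMIs were also slightly higher in the marked cells of every library, and the part of this residual depth was not tested. The median mitochondrial share of UMIs was 0.861% and 0.924% in marked against 1.03% and 1.08% in matched double mutant cells, 3.53% and 3.62% against 3.65% and 3.72% in Bax Null, and 1.01% and 0.969% against 1.03% and 0.978% in Bax het Atoh7 Null, where the difference was smallest. It was lower in marked cells by 0.0970 ± 0.0663 percentage points, in 6 of 6 libraries (exact p = 0.03125, adjusted p = 0.03125). Cells in the top 8% of doublet scores made up 5.45% to 14.1% of marked cells and 3.88% to 8.76% of all ganglion cells of a library, and their part in the results was examined by leaving them out.

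Marker-positive cells of other types were set beside the ganglion cells. Cones with 2 or more marker UMIs numbered 38 to 58 per library and had 3244 to 6031 CPM of the 27 response genes, against 1004 to 1384 CPM in cones with none. In the Bax Null libraries marker-positive cones were at 3395 and 3244 CPM against 1004 and 1038 CPM, whereas marked ganglion cells were at 847 and 826 CPM against 760 and 790 CPM. These sums are described with no test. Marker-positive neurogenic cells had 805 and 875 CPM in Bax Null and 1243 to 1864 CPM in the Atoh7 Null libraries. Those with none had 824 and 807 CPM and 1181 to 1360 CPM. Marker-positive progenitors had 1008 and 990 against 826 and 823 CPM in Bax Null. In the Atoh7 Null libraries they had 1801 to 2261 against 1258 to 1556 CPM. The 13 and 12 such horizontal cells of the double mutant had 4663 and 3275 against 1491 and 1583 CPM. Those of Bax het Atoh7 Null had 1002 and 1687 against 1423 and 1391 CPM. Those of Bax Null had 1062 and 910 against 1138 and 1097 CPM.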

How the data were processed

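The deposited matrix held UMI counts made by the authors from 10x Genomics 3′ v2 libraries with Cell Ranger 1.2.1 and genome build mm10, per the submitters' processing notes. Cell types, cluster numbers and UMI totals per cell were those of the authors' deposited cell table. Other filters of the authors, and whether they removed doublets, are not given in the sources used here. The 2 other libraries in the matrix (26078 cells) were not used. Groups came from the labels.

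Each marked cell was paired, within its library and without replacement, with the sum-0 ganglion cell nearest in UMI total. Counts were summed per library and state (292893 to 2726704 UMIs in marked cells), the 5 marker genes were removed, and genes were filtered (filterByExpr, minimum count 10), scaled by TMM and tested with edgeR 4.0.16 (quasi-likelihood, library as block, adjusted p under 0.05) in R 4.3.3. The groups' effects, their differences and a genotype contrast in marked cells came from the same kind of fit. Alternatives were DESeq2 1.42.0, other matching, other filters, other marker rules, no block, and leaving out each library, the cells in the top 8% of Scrublet doublet scores (scanpy 1.11.5), shared barcodes or cluster 62. The last 2, the rule on thinned counts and the sum of at least 5 were chosen after seeing the data. On simulated data of 5330 genes for the comparison over all libraries, the fit recovered 100% of genes changed by 1 or 2 log2 units and called 0.155% of unchanged ones. The changed genes had a mean of at least 20 CPM and changed alike in every library. Recovery of genes with few UMIs, or changed in only some libraries, was not simulated. Per-cell measures were compared as differences of library medians by exact sign-flip permutation tests, and shares carry 95% Wilson intervals.

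The members and gene lists were chosen with earlier results of these data known. Genes named were the marker genes, Atoh7 and Bax, list members, and in each comparison the called genes of at least 20 CPM with the highest and lowest fold changes and 1 direction in every library (15 at each end, or 3 in the group differences). Crabp1 over all libraries was named after its values were seen. Gene positions came from GENCODE vM21 (GRCm38). CPM are counts scaled to the UMIs of the cells summed. Replicate numbers in the labels did not pair libraries across groups.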

Additional observations from a re-analysis of the deposited data

Results flagged for a closer look

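The effect of the marked state differed between groups in 2 contrasts, each by a test of the difference itself with edgeR's quasi-likelihood test and Benjamini-Hochberg adjustment. Between Bax Null Atoh7 Null and Bax het Atoh7 Null, the difference was called for 1 gene, Crabp1, at 0.85 on the log2 scale. Between the mean of the Atoh7 Null groups and Bax Null, it was called for 309 genes.

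Of these 309, the genes with the largest positive differences that also separated the libraries were Cystm1 (3.10), Eif4ebp1 (3.08) and 2900055J20Rik (2.94), on the log2 scale. Cystm1, a small membrane protein gene, had 199 and 333 UMIs in marked and 167 and 244 in matched Bax Null cells, and 6, 13, 21 and 27 against 0, 1, 4 and 3 in the Atoh7 Null libraries. With matched counts this low, its fitted difference depends on the prior count of the fit. Cystm1 and Eif4ebp1 passed the filter only with the marked sums. Those with the lowest were Sp8 (−3.00), Nmrk1 (−1.65) and Mybl1 (−1.61). Sp8 passed the filter only through the matched sums, where it is high. Nmrk1, which encodes a kinase of NAD synthesis, was at 35.9, 20.5, 43.7 and 35.3 CPM in marked Atoh7 Null cells against 117, 65.3, 89.9 and 82.8 CPM in matched ones, and at 15.4 and 15.04 against 12.1 and 13.4 CPM in Bax Null. Mybl1, a transcription factor gene, was at 17.1 to 26.1 against 63.6 to 97.9 CPM in the Atoh7 Null libraries and at 7.93 and 6.23 against 9.07 and 6.89 CPM in Bax Null. Genotype and library preparation cannot be told apart in this contrast, and the part of the unlike mix of marker genes was not tested.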

How the results depend on the processing

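The counts of called genes depended on the matching, the model and the cells used. Counts are given in the order all libraries, Atoh7 Null libraries, Bax het Atoh7 Null, Bax Null and Bax Null Atoh7 Null. With no matching they were 1532, 1482, 561, 1450 and 1163, and by DESeq2 201, 259, 74, 4 and 172. Without the replicate block, that is, with no library term, they were 275, 485, 92, 3 and 329. With the rule on thinned counts they were 239, 558, 108, 1 and 337. Without cluster 62 they were 245, 110 and 56 in the first 3 and 43 in the last. Matching within the authors' clusters gave 27 and 109 in the first 2, and over all libraries 2 sum-0 cells per marked cell gave 995 and a sum of at least 1 gave 1117. Leaving out 1 library at a time gave 217 to 483, 575 to 975, 94 to 186, 11 to 14 and 344 to 384.

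The difference of effects between Bax Null Atoh7 Null and Bax het Atoh7 Null was called for 0 genes without top doublet scores, by DESeq2 and with no replicate block, for 2 without a filter on low counts, without the shared barcodes and without cluster 62, and for 0 to 5 without 1 library. That between Atoh7 Null and Bax Null was called for 42 genes by DESeq2, 90 with no replicate block, 21 without cluster 62, 65 with the thinned rule and 128 to 319 without 1 library. In marked cells, the Bax contrast gave 80 genes with the replicate number as a block, 47 without cluster 62 and 48 to 248 without 1 library. The replicate numbers did not pair libraries (correlation of same-numbered deviations 0.0674 over 6526 genes).

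The mean marked share in Bax het Atoh7 Null, Bax Null and Bax Null Atoh7 Null was 3.77%, 0.715% and 9.51% at 1000 UMIs, 5.29%, 1.85% and 13.7% at 1500, and 8.09%, 2.93% and 17.5% at 2000. It was 31.0%, 47.0% and 35.0% for a sum of at least 1, 5.24%, 5.67% and 11.04% for at least 3, 2.61%, 0.608% and 5.32% for at least 5, and 7.82%, 9.59% and 13.4% for at least 2 genes detected. Without 1 library, genes detected differed by 24.5 to 29.5 and the mitochondrial share by −0.115 to −0.0833 percentage points, where 5 libraries cannot give an exact p below 0.0625.

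Of 3162 alternatives for 140 named gene results, 2846 kept direction and call, 305 kept direction without the call and 11 turned direction. The cause was not tested. With matching within clusters, log2 values turned over all libraries for Crabp1 (−0.053), Gadd45g (0.024), Nhlh2 (−0.027) and Pou4f1 (−0.0050), and in the Atoh7 Null libraries for Btg2 (0.15), Gadd45g (0.080) and Nhlh2 (−0.26). Pou4f1 was at −0.20 with the thinned rule. Without cluster 62, Calr was at 0.014, Manf at 0.078 and Tubb3 at 0.016 in the Atoh7 Null libraries. Depth limits the Atoh7 Null libraries most, where many response genes had under 5 UMIs in matched cells.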
